A study of Mus musculus with 8 samples.

Results

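Mitochondrial fatty acid oxidation genes were followed in total RNA of mouse liver, through the reads that a catalogue of long non-coding RNAs collects over their exons. The genes were Acsl1, Cpt1a, Slc25a20, Hadha, Eci2 and Etfa. Of the 83057 catalogue entries in the table, called rows here, 20 met these 6 genes, and 8 of the 20 were certain to share exon bases with them on one strand or the other. A further 6 rows lay wholly in introns, 4 could not be placed because the table gives the number of exons of a row but not where they lie, and 2 had known exons that skip those of the gene. All 20 rows are accounted for below, and 18 passed the filter on low counts. A row over an exon is the signal of a non-coding entry at that place, not the level of the full mRNA.

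The livers came from male C57BL/6 mice of about 20 weeks, 4 fed freely (ad libitum) and 4 deprived of food for 24 h, all killed at 10 am. No mouse carried a labelled genetic change. One library was made for each mouse with a stranded total-RNA kit, and 51043492 to 119167644 reads per library entered the tests of rows. In bulk liver, fewer cells of a type and less RNA per cell cannot be told apart.

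Long-chain fatty acids are activated to acyl-CoA at the outer membrane, carried into the mitochondrion as carnitine esters, and shortened there in repeated rounds of dehydrogenation, hydration, dehydrogenation and thiolysis. Electrons from the acyl-CoA dehydrogenases pass through the electron transfer flavoprotein to ubiquinone. In a fasted liver the acetyl-CoA that this yields feeds ketone body synthesis, and the nuclear receptor PPARα is a known activator of the pathway's genes.

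The sequences under the rows show how little of each gene a row can hold. The Hadha row lies inside an annotated transcript that keeps its introns, and of the spliced coding sequence it holds only exon 2, of 42 bases, and exon 3, of 71 bases. Both exons are shown on the minus strand of mm10 with 30 bases on either side, exon bases in capitals, at chr5:30147950-30148051 and chr5:30147316-30147446. The Etfa row holds a single annotated exon of 119 bases, exon 5 of a non-coding processed transcript at chr9:55474537-55474655, minus strand, which belongs to no coding transcript of Etfa.
Hadha exon 2: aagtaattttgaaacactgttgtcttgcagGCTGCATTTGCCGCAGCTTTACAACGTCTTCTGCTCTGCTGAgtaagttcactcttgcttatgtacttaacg
Hadha exon 3: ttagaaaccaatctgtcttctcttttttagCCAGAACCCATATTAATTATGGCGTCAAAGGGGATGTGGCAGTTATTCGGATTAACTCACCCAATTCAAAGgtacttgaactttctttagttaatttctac
Etfa exon 5: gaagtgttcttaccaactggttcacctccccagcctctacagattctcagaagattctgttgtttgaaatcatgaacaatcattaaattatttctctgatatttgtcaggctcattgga

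The 250 bases before the RefSeq start sites (GRCm38.p6) of Cpt1a, chr19:3323051-3323300, and of the upstream Acsl1 start, chr8:46470787-46471036, are shown because the exonic rows nearest to a start site lie beside the former and across the latter. Capitals mark AGGTCA, the core letters of nuclear receptor elements, and GGGCGG, the core of a GC box, on either strand, so that TGACCT and CCGCCC are their minus-strand spellings. The marked stretches of different motifs did not overlap.
Cpt1a upstream: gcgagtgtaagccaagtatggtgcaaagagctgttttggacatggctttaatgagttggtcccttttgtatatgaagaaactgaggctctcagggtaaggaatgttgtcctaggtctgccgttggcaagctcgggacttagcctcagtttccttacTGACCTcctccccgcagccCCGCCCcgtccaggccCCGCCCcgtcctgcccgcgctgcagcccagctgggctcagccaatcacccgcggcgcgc
Acsl1 upstream: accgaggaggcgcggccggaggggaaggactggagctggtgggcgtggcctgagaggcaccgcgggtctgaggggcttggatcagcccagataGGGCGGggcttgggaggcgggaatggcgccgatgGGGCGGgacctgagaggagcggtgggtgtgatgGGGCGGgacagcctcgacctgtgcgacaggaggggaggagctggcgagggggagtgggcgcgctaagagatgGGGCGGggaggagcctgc

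All 6 genes had a 250-base window, and Acsl1 had a second one, which made 7. AGGTCA was present in 1 of the 7, that of Cpt1a with its first base 94 bases before the start, and in 14% of 32851 mouse windows of that length. GGGCGG was present in 5 of the 7 and in 32.7% of all windows, with 4 matches in the Acsl1 window shown. The direct repeat of AGGTCA with 1 base between the copies was in 0 of the 7 and in 0.0335% of all windows. A match describes the letters of this window and shows no binding.

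**Figure D1:**
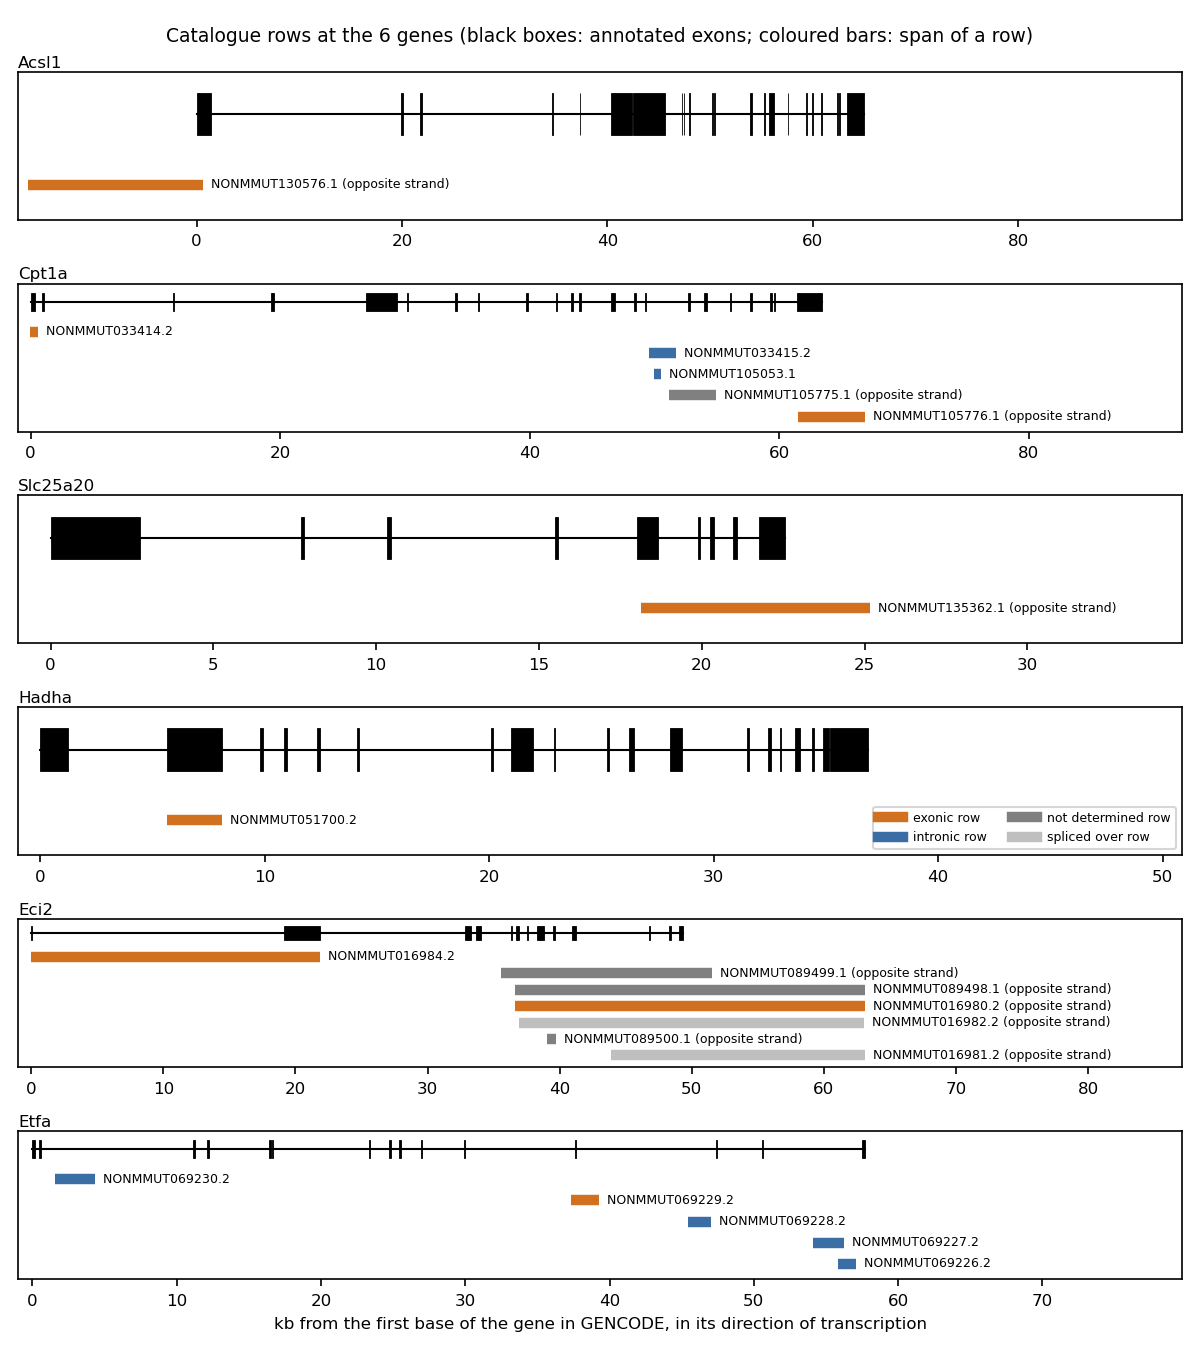
Map of the 20 rows at the 6 genes. The x axis is the distance in kb from the first base of the gene in GENCODE, black boxes are annotated exons of all transcripts, and coloured bars are the spans of rows, of which 8 are exonic and 6 intronic. Cpt1a and Etfa are the genes with both an exonic and an intronic row.

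Fasted replicate 4 stood apart from the other fasted libraries, so the main results are also given for it alone. CPM are counts divided by the total of tested reads multiplied by a TMM factor, and put on a common scale. A larger factor thus lowers the CPM of a library. For rows the factors were 0.969 to 1.0187 in the ad libitum libraries. They were 1.1717, 1.1296, 0.8558 and 0.8881 in fasted replicates 1 to 4. For gene sums they were 0.9357 to 0.965 in the ad libitum libraries and 1.1512, 1.2527, 0.918 and 0.9221 in the fasted ones. In a principal component analysis of log2 CPM, component 1 carried 47.6% of the variance and placed fasted replicate 4 at -4.37, between the ad libitum range of -75.3 to -66.6 and the range of 90.5 to 103 of fasted replicates 1 to 3. The share of odd read numbers among rows with 21 to 200 reads was 9.21 to 10.3% in the ad libitum libraries, 10.8% in fasted replicate 4 and 16.5 to 17.8% in fasted replicates 1 to 3. By this measure of the counting the libraries fall into 5 and 3, and the 3 are all fasted. Only the contrast of fasted replicate 4 with the 4 ad libitum libraries compares feeding states among the 5. Its 1 fasted library is assumed to vary like the others.

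Every exonic row of the 6 genes was higher in the fasted livers. The 6 genes were chosen with earlier results of these data known, so the shares of all rows serve as a description. All 8 passed edgeR's quasi-likelihood test at a Benjamini-Hochberg adjusted p under 0.05, with a median log2 fold change of 1.39, while 9.55% of the 40840 rows tested passed in that direction and the median of all rows was 0.01. In 7 of the 8 the lowest fasted library lay above the highest ad libitum library, against 9.08% of all rows tested. The Slc25a20 row was among the 7 by 0.200 against 0.197 CPM. With the factors of the gene sums its groups overlapped, at 0.139 against 0.144 CPM, so the count depends on the scaling. In fasted replicate 4 alone 5 of the 8 rose, against 2.06% of all rows. The median log2 change of the 8 there was 0.87, where that of all rows was -0.02. The 5 were the rows of Cpt1a, Eci2 and Etfa. No row of Slc25a20, Hadha or Acsl1 passed there.

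**Figure D2:**
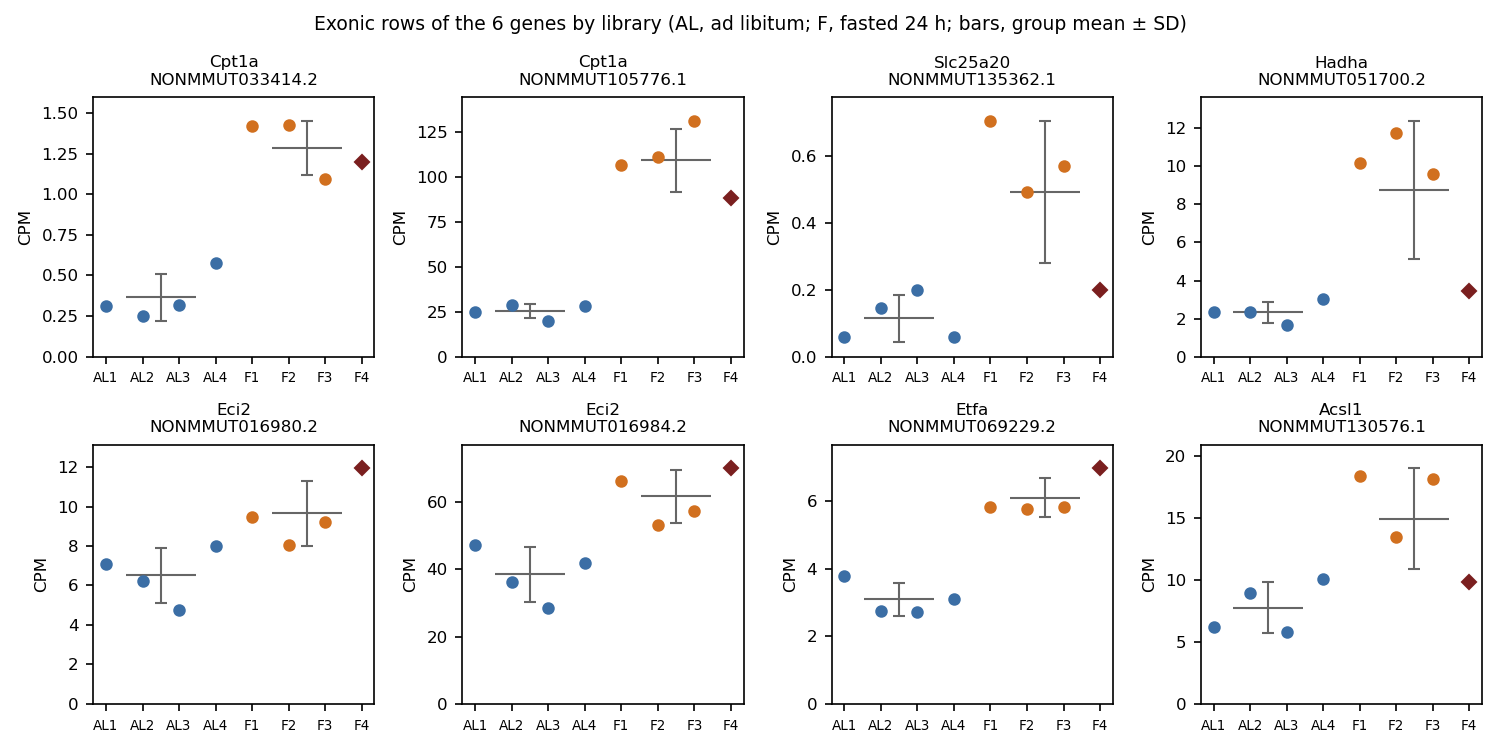
CPM of the 8 exonic rows in each of the 8 libraries, on axes that start at 0. Circles are single libraries, the diamond is fasted replicate 4, and bars give the mean ± SD of 4 libraries. The diamond is the highest value for Eci2 and Etfa, lies among or below the other fasted values but above all ad libitum ones for Cpt1a, and is near or in the ad libitum range for Slc25a20, Hadha and Acsl1.

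Acsl1 makes the acyl-CoA of long-chain fatty acids, the substrate of the carnitine shuttle. Its row NONMMUT130576.1 (chr8:46454642-46471680) has 3 exons and 1868 bases on the opposite strand, begins 643 bases inside the gene from the upstream start, and is also a row of the non-coding gene Gm45244. It had 6.21, 8.93, 5.81 and 10.1 CPM in the ad libitum libraries and 18.4, 13.4, 18.1 and 9.85 CPM in fasted replicates 1 to 4. Fasted replicates 1 to 3 lay above all ad libitum libraries, and fasted replicate 4 lay below the highest of them, so the groups overlapped. The row rose by 0.94 ± 0.24 (SE) on the log2 scale, with an adjusted p of 0.0283, and in fasted replicate 4 alone the log2 fold change was 0.34 with an adjusted p of 0.624. The call was lost when ad libitum replicate 1 or 3 or fasted replicate 1, 2 or 3 was left out, with adjusted p-values of 0.0525 to 0.0704.

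Cpt1a encodes carnitine palmitoyltransferase 1A, the liver form of the enzyme that makes acylcarnitines at the outer membrane and controls the rate of entry. It had the row with the highest reads per length of the 8, NONMMUT105776.1 (chr19:3383868-3389210), which has 4 exons and 1157 bases on the opposite strand. This row shares exons with Tesmin and runs from there to an end inside the last exon of Cpt1a, exon 19, 1866 bases of which lie in its span. It had 24.9, 28.8, 19.9 and 28.1 CPM in the ad libitum libraries and 106, 111, 131 and 88.0 CPM in the fasted ones. All fasted libraries stood far above all ad libitum libraries, fasted replicate 4 included. The log2 fold change was 2.10 ± 0.14 (SE), with an adjusted p of 1.07e-06, and that of fasted replicate 4 was 1.79 with an adjusted p of 2.15e-05.

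The other exonic Cpt1a row, NONMMUT033414.2 (chr19:3322330-3322941), is a single exon of 612 bases on the strand of the gene. It spans positions -971 to -360 from the RefSeq start, and 365 of its bases form exon 1 of an alternative coding transcript. It had 0.315, 0.252, 0.316 and 0.575 CPM in the ad libitum libraries and 1.42, 1.43, 1.09 and 1.20 CPM in the fasted ones, from 14 to 40 and 88 to 192 reads. The fasted libraries, fasted replicate 4 among them, were all above the ad libitum ones. The row rose by 1.80 ± 0.26 (SE) on the log2 scale, with an adjusted p of 0.000418, and by 1.69 in fasted replicate 4, with an adjusted p of 0.0165. The row before the RefSeq start and the row that ends in the last exon thus both passed, at levels of 2.10 and 94.2 CPM per kb in fasted liver. Of the latter, which shares exons with Tesmin, 1 Cpt1a exon base is certain.

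Slc25a20 encodes the carnitine-acylcarnitine carrier of the inner membrane, the next step of the shuttle. Its row NONMMUT135362.1 (chr9:108680231-108687268), 313 bases in 2 exons on the opposite strand, has an end base in an exon of a transcript that retains an intron. It was thinly covered, with 4, 8, 10 and 4 reads in the ad libitum libraries and 88, 66, 46 and 16 in the fasted ones, or 0.0572, 0.144, 0.197 and 0.0575 CPM and 0.702, 0.490, 0.570 and 0.200 CPM. Fasted replicates 1 to 3 were high, and fasted replicate 4 was level with the highest ad libitum library. The log2 fold change was 2.16 ± 0.49 (SE), with an adjusted p of 0.00831, and in fasted replicate 4 alone it was 0.87 ± 0.65 with an adjusted p of 0.579.

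Hadha encodes the alpha subunit of the mitochondrial trifunctional protein, which hydrates and dehydrogenates long-chain intermediates. Its row NONMMUT051700.2 (chr5:30147084-30149543), 2455 bases on the strand of the gene, holds the exons printed above and the introns around them. It had 2.35, 2.34, 1.66 and 3.02 CPM in the ad libitum libraries and 10.2, 11.8, 9.58 and 3.47 CPM in the fasted ones. Fasted replicates 1 to 3 were well above every ad libitum library, and fasted replicate 4 was just above the highest one. The log2 fold change was 1.90 ± 0.39 (SE), with an adjusted p of 0.0173, and that of fasted replicate 4 was 0.56 ± 0.23 with an adjusted p of 0.25. The adjusted p was 0.0606 with limma-voom.

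Eci2 encodes an enoyl-CoA delta isomerase that moves double bonds of unsaturated fatty acids into the place the spiral needs. Its row NONMMUT016984.2 (chr13:35005212-35027096) has 2 exons and 2876 bases on the strand of the gene and spans -33.0 to -11.1 kb from the RefSeq start. This row lies over nearly the same bases as a non-coding processed transcript of 2 exons (chr13:35005214-35027096). Of the exons of coding transcripts it spans only a first exon of 86 bases. It had 47.4, 36.3, 28.4 and 42.0 CPM in the ad libitum libraries and 66.2, 53.2, 57.2 and 70.1 CPM in the fasted ones. All fasted libraries were above all ad libitum ones. Fasted replicate 4 was the highest after TMM scaling, but not by reads over the library total. The row rose by 0.68 ± 0.15 (SE) on the log2 scale, with an adjusted p of 0.00732, and by 0.86 in fasted replicate 4, with an adjusted p of 0.0337. Without ad libitum replicate 2 or 4 the adjusted p of the latter was 0.068 or 0.0536.

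The opposite-strand Eci2 row NONMMUT016980.2 (chr13:34963982-34990452) is a transcript of Gm16984 with 5 exons, one of which covers the whole of an Eci2 exon of 189 bases. It had 7.10, 6.23, 4.74 and 7.99 CPM in the ad libitum libraries and 9.45, 8.03, 9.21 and 11.9 CPM in the fasted ones. The groups were separate, by a margin of 7.99 against 8.03 CPM. The closely related gene Eci3 lies next to Eci2, and how reads that fit both were counted is not stated. The row rose by 0.56 ± 0.16 (SE) on the log2 scale, with an adjusted p of 0.0283, and by 0.87 in fasted replicate 4, with an adjusted p of 0.0296. The first call was lost when ad libitum replicate 1, 2 or 3 or fasted replicate 1 or 3 was left out, with adjusted p-values of 0.0539 to 0.0841. Of the other rows of Eci2 on that strand, NONMMUT089499.1 rose, with a log2 fold change of 0.72 and an adjusted p of 0.027 (0.0555 to 0.0935 without ad libitum replicate 1, 3 or 4 or fasted replicate 1 or 3), and NONMMUT089498.1 and NONMMUT016982.2 did not pass, at 0.57 and 0.45. In fasted replicate 4 the log2 fold change of NONMMUT089499.1 was 0.62 ± 0.31 (SE). NONMMUT016981.2, with at most 4 reads in a library, and NONMMUT089500.1, with at most 10, were not tested.

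Etfa encodes the alpha subunit of the electron transfer flavoprotein. Its exonic row NONMMUT069229.2 (chr9:55472942-55474934) is 1 exon of 1993 bases on the strand of the gene. It had 3.78, 2.76, 2.73 and 3.10 CPM in the ad libitum libraries and 5.82, 5.77, 5.83 and 6.97 CPM in the fasted ones. All fasted libraries were above all ad libitum ones. After TMM scaling of rows fasted replicates 1 to 3 were close to each other, and fasted replicate 4 was well above them. By reads over the library total without TMM, fasted replicate 4 lay inside their range. The row rose by 0.98 ± 0.13 (SE) on the log2 scale, with an adjusted p of 0.000249, and by 1.17 in fasted replicate 4, with an adjusted p of 0.00153.

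Per length, the order of levels in fasted liver ran from the Cpt1a row NONMMUT105776.1, at 94.2 CPM per kb, through the Eci2 rows, at 21.4 and 9.83, to Acsl1 at 7.99 CPM per kb. Below these lay Hadha at 3.56, Etfa at 3.06, the Cpt1a row NONMMUT033414.2 at 2.10 and Slc25a20 at 1.57 CPM per kb. Several neighbours in this order did not differ beyond the wider of their SDs (n = 4 each): the lower Eci2 row and Acsl1 (SD 2.18 CPM per kb for Acsl1), Hadha and Etfa (SD 1.48 CPM per kb for Hadha), and the lower Cpt1a row and Slc25a20 (SD 0.679 CPM per kb for Slc25a20). In ad libitum liver Hadha, at 0.954 CPM per kb, lay below Etfa, at 1.55.

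Rows in the introns of the same genes were compared next. Whether their reads come from unspliced RNA of the gene or from separate transcripts was not tested, and both Cpt1a rows are spliced catalogue entries, with 2 and 5 exons. Only Cpt1a and Etfa had such rows, all on the strand of the gene. Of the 6 intronic rows 5 rose, where 9.55% of all rows did, and the median log2 fold change of the 6 was 0.77 against 0.01 over all rows. In fasted replicate 4 alone 4 rose, where 2.06% of all rows did, and the median of the 6 was 0.79 against -0.02. In all 6, and in 9.08% of all rows, every fasted library was above every ad libitum library.

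The best covered intronic row of Cpt1a, NONMMUT033415.2, had 11.1, 10.6, 6.91 and 7.70 CPM in the ad libitum libraries and 17.8, 19.8, 20.9 and 22.8 CPM in the fasted ones. Fasted replicate 4 was the highest library after TMM scaling, but not by reads over the library total. The log2 fold change was 1.16 ± 0.15 (SE), with an adjusted p of 0.000213, and that of fasted replicate 4 was 1.32 with an adjusted p of 0.00198. The smaller row NONMMUT105053.1, inside its span, rose by 1.28 on the log2 scale, with an adjusted p of 0.0223, which was 0.0532 to 0.0675 without ad libitum replicate 2 or 3 or fasted replicate 3. The opposite-strand row NONMMUT105775.1, whose exons could not be placed, rose by 2.73, with an adjusted p of 0.00184, from 2 to 8 reads in the ad libitum libraries and 22 to 121 in the fasted ones. The 22 reads were those of fasted replicate 4, where its log2 fold change was 1.34 ± 0.58 (SE).

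The intronic row of Etfa with the most reads, NONMMUT069230.2, had 3.81, 3.60, 3.08 and 3.94 CPM in the ad libitum libraries and 6.79, 6.05, 6.52 and 6.05 CPM in the fasted ones. The groups were separate, and fasted replicate 4 was level with the lowest of the other fasted libraries. The row rose by 0.81 ± 0.12 (SE) on the log2 scale, with an adjusted p of 0.000354, and by 0.74 in fasted replicate 4, with an adjusted p of 0.0264. NONMMUT069228.2 and NONMMUT069227.2 rose by 0.74 and 0.68, and NONMMUT069226.2, which overlaps the latter, had a log2 fold change of 0.58 with an adjusted p of 0.0528. In fasted replicate 4 the log2 fold changes of these rows were 0.83 ± 0.19, 0.70 ± 0.23 and 0.73 ± 0.28 (SE), in the same order.

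**Figure D3:**
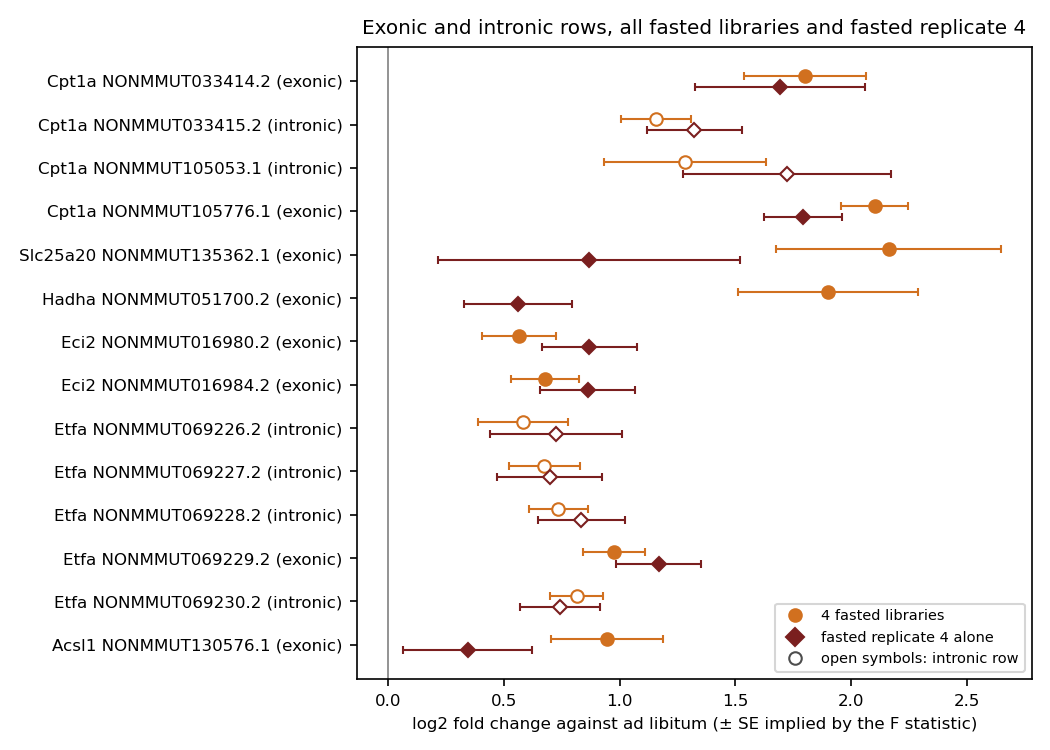
Log2 fold change against the ad libitum libraries (x axis) of the 8 exonic and 6 intronic rows, with the SE implied by the F statistic. Circles are the 4 fasted libraries, diamonds are fasted replicate 4 alone, and open symbols are intronic rows. For the Etfa row NONMMUT069229.2 circle and diamond lie at 0.98 and 1.17, and for Hadha at 1.90 and 0.56.

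The ratio of exonic to intronic reads was taken within each library, which removes the scaling between libraries. For Cpt1a its log2 value was 1.11, 1.42, 1.51 and 1.80 in the ad libitum libraries and 2.54, 2.45, 2.60 and 1.89 in the fasted ones. All fasted values were above all ad libitum values, and that of fasted replicate 4 was the closest to them. The means were 1.46 ± 0.29 and 2.37 ± 0.32 (SD, n = 4 each), a difference of 0.91, with p = 0.0286 in an exact two-sided permutation test, the smallest that 4 against 4 libraries allow. The exonic reads were nearly all from the opposite-strand row, and with NONMMUT033414.2 in its place the difference was 0.66 (exact permutation p = 0.143). Of that opposite-strand row a single Cpt1a exon base is certain, and its reads may be those of Tesmin. For Etfa the ratio does not bear on exon against intron: the row counted as exonic has 5.97% of its bases in an exon, so mainly intronic reads stand on both sides. Its log2 values were -1.72 ± 0.22 in the ad libitum and -1.47 ± 0.12 in the fasted libraries (SD, n = 4 each), and the groups overlapped.

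**Figure D4:**
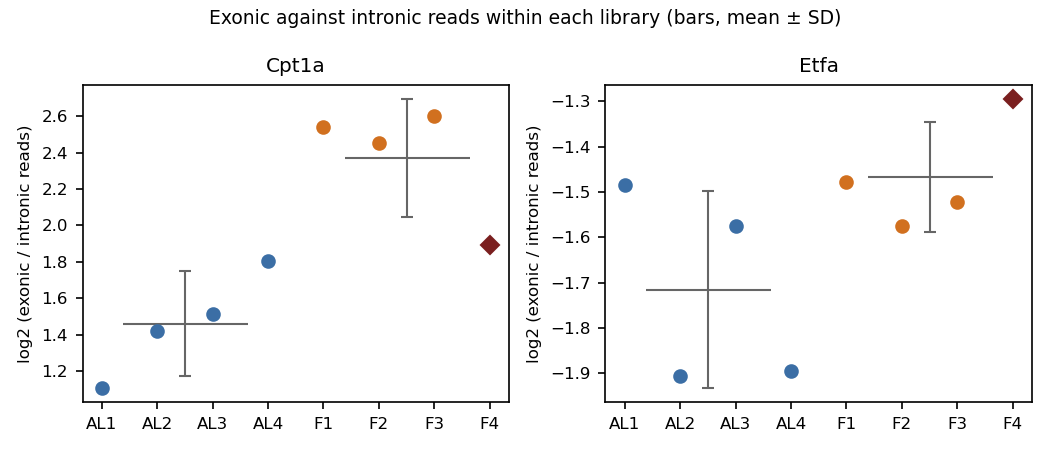
Log2 ratio of exonic to intronic reads of Cpt1a and Etfa within each library, with mean ± SD of 4 libraries. The diamond is fasted replicate 4, at 1.89 for Cpt1a, and the axes do not start at 0; the Etfa row counted as exonic is mostly intron.

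Strand was checked because 4 of the 8 exonic rows lie opposite to their gene and the counting is not stated to use strand. Among single-exon rows with at least 100 reads, 38 pairs on opposite strands shared at least 90% of their bases, and in 19 of them the reads of both rows were equal within 10%. The median difference within a pair was 0.144 on the log2 scale. For opposite-strand rows, reads of the row and of the gene's own RNA therefore cannot be told apart. The 4 same-strand rows, of Cpt1a, Hadha, Eci2 and Etfa, all passed. If the counting ignored strand, they too hold reads of both strands, so their calls do not assign the reads to the gene's own RNA.

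Summed per gene over the exonic rows, the fit covers 13308 genes, of which 13.4% rose and 11.9% fell. All 6 genes rose. The log2 fold changes were 2.18 for Slc25a20, 2.10 for Cpt1a, 1.92 for Hadha, 0.98 for Etfa, 0.96 for Acsl1 and 0.66 for Eci2. The sums of Slc25a20 and Acsl1 rest on opposite-strand rows alone, and that of Cpt1a nearly so, so these reads cannot be assigned to the gene. The Acsl1 sum did not pass without ad libitum replicate 1, 2 or 3 or fasted replicate 1, 2 or 3, at adjusted p-values of 0.0534 to 0.0742. In fasted replicate 4 the log2 changes were 1.74 ± 0.16 (SE) for Cpt1a, 1.11 ± 0.19 for Etfa and 0.81 ± 0.21 for Eci2. They were 0.81 ± 0.66 for Slc25a20, 0.51 ± 0.24 for Hadha and 0.29 ± 0.28 for Acsl1, against a median of -0.06 over all genes.

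The other genes of the pathway were taken from 8 lists with 56 genes, of which 23 had an exonic row and 20 were tested. Of the 20, 10 rose and 2 fell, where 13.4% of all genes rose and 11.9% fell, so falls were not more frequent here than over all genes. Slc27a2, Slc27a5, Crat, Acad10 and Acat1, 5 of the 10, rest on opposite-strand rows alone, whose reads cannot be assigned to the gene. The median log2 fold change was 0.58, against 0.01 over all genes. In fasted replicate 4 alone 5 rose and 0 fell, where 2.71% and 2.52% of all genes did, with a median of 0.24 and a median of -0.06 over all genes. Neither the auxiliary enzymes of unsaturated fatty acids nor the enzymes of propionyl-CoA disposal had a gene that could be tested.

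In uptake and activation 3 of 6 tested genes rose. The transporter gene Slc27a2, which also codes for a very-long-chain acyl-CoA synthetase, rose from 70.5 to 97.7 CPM in the ad libitum libraries to 148 to 227 CPM in the fasted ones, by 1.08 on the log2 scale. Cd36, a fatty acid transporter of the cell surface, rose by 1.77, and its log2 change in fasted replicate 4 was 1.56 ± 0.43 (SE). Among the 3 that rose were also Slc27a2, above, and Slc27a5, a bile acyl-CoA synthetase, which rose by 0.56. The last had 51.4 CPM in fasted replicate 4, within the ad libitum range of 46.2 to 53.5, and its adjusted p was above 0.05 without any one of the other 7 libraries. In the carnitine shuttle the 1 gene tested, Crat, the carnitine acetyltransferase, rose by 1.39, and by 1.56 in fasted replicate 4.

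In the spiral 2 of 4 tested genes rose and 1 fell. Echs1, the short-chain enoyl-CoA hydratase, had 10.1 to 11.8 CPM in the ad libitum libraries, 18.5, 18.2 and 21.7 CPM in fasted replicates 1 to 3 and 10.6 CPM in fasted replicate 4. It rose by 0.69 on the log2 scale, and fasted replicate 4 lay inside the ad libitum range, with a log2 change of -0.02. Its adjusted p of 0.0261 was 0.053 to 0.0755 without any one ad libitum library or fasted replicate 1 or 2. Acad10, an acyl-CoA dehydrogenase family member, rose by 0.63, and its log2 change in fasted replicate 4 was 0.48 ± 0.18 (SE). Acadsb, the dehydrogenase of short branched acyl-CoA from isoleucine, fell by 0.36, with an adjusted p of 0.0378 (0.0706 to 0.109 without ad libitum replicate 1, 2 or 4 or fasted replicate 1 or 3).

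Etfrf1, a regulator of the electron transfer flavoprotein and the 1 gene tested of its list, rose by 1.19, from 4.48 to 5.71 CPM in the ad libitum libraries to 10.5 to 13.6 CPM in the fasted ones, and by 1.16 in fasted replicate 4. Among regulators 2 of 6 rose: the coactivator gene Ppargc1a by 1.19 and the mitochondrial deacetylase gene Sirt3 by 0.66. In fasted replicate 4 their log2 changes were 0.97 ± 0.33 and 0.67 ± 0.12 (SE). Prkaa2, a catalytic subunit gene of AMP-activated kinase, fell by 0.38, with an adjusted p of 0.0438 (0.0814 to 0.115 without ad libitum replicate 1, 2 or 4 or fasted replicate 1, 2 or 3). Neither fall passed with library totals in place of TMM scaling, at adjusted p-values of 0.438 for Acadsb and 0.365 for Prkaa2. In ketone body synthesis 1 of 2 rose: Acat1, the mitochondrial acetoacetyl-CoA thiolase, by 0.80, and by 0.92 in fasted replicate 4.

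**Figure D5:**
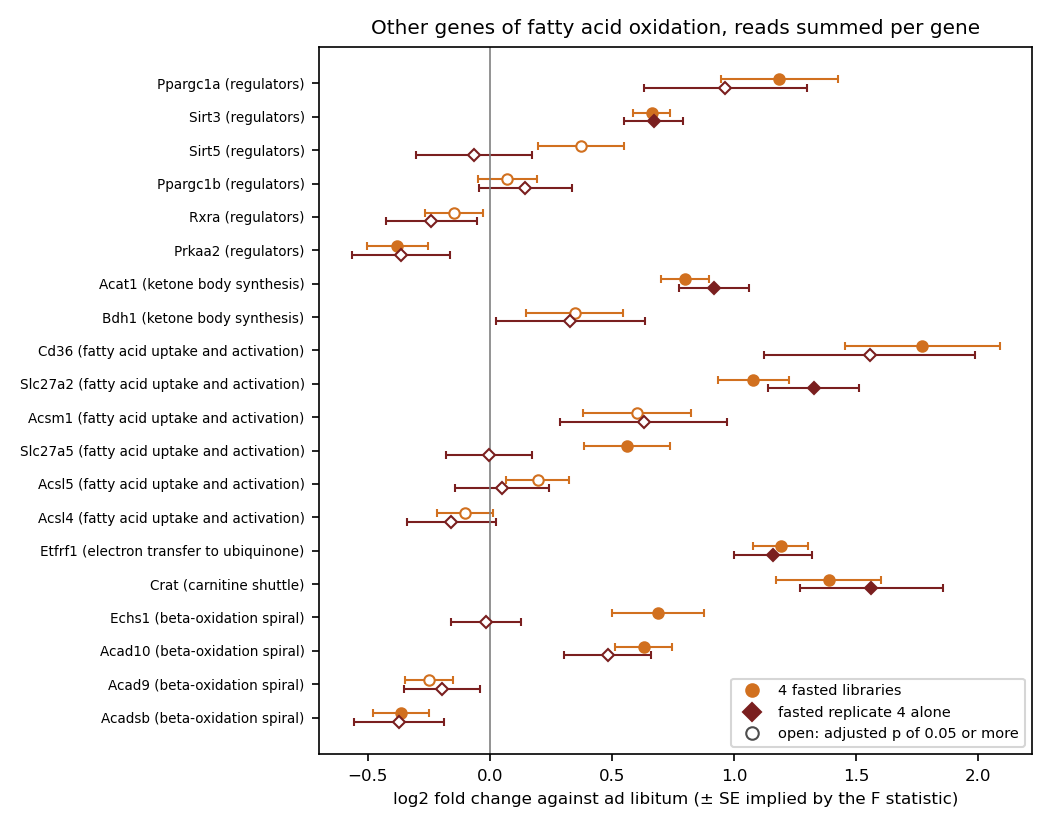
Log2 fold change against the ad libitum libraries (x axis) of the 20 other pathway genes tested, by list, with the SE implied by the F statistic. Circles are the 4 fasted libraries and diamonds fasted replicate 4 alone; filled symbols have an adjusted p under 0.05. Filled circles lie to the right for 10 genes and to the left for Acadsb and Prkaa2.

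The genes most like Cpt1a and Hadha in pattern were sought among 4822 coding genes with at least 1 CPM, by Pearson's r of log2 CPM over the 8 libraries, as a description. For Cpt1a they were Tesmin, which shares the row over the last exon, Retsat with r = 0.996 and 4833420G17Rik with r = 0.993. Retsat had 8.32 to 18 CPM in the ad libitum libraries, 126 to 140 CPM in fasted replicates 1 to 3 and 85.7 CPM in fasted replicate 4. For Hadha they were Scp2 with r = 0.99, Adhfe1 with r = 0.985 and Mrps30 with r = 0.984. Scp2, the sterol carrier and peroxisomal thiolase gene, had 34.3 to 52.2 CPM in the ad libitum libraries, 207 to 228 CPM in fasted replicates 1 to 3 and 60.8 CPM in fasted replicate 4, the pattern that the Hadha row also had. All these values share the 8 libraries and their split.

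Markers of liver cell types were followed beside these results. Of 10 hepatocyte markers 3 had a row, Cps1 and Hnf4a rose, Ttr fell, and their sum was 240 to 338 CPM in the ad libitum libraries, 540 to 662 CPM in fasted replicates 1 to 3 and 565 CPM in fasted replicate 4. Of 8 stellate cell markers 6 had a row, and Reln and Acta2 rose while Lrat and Col1a1 fell. Their sum was 15.5 to 27.5 CPM in the ad libitum libraries, 43.7 to 55.4 CPM in fasted replicates 1 to 3 and 19.6 CPM in fasted replicate 4, so it moved with the rows of Hadha, Slc25a20 and Acsl1. The sum of Adipoq and Ckm, of adipose and muscle, was 0.0766 to 0.173 CPM in the ad libitum libraries, 0.372 to 1.06 CPM in fasted replicates 1 to 3 and 0.147 CPM in fasted replicate 4. Of the endothelial markers tested, Stab2 rose, and their sum was 16.2 to 19.1, 18.8 to 19.1 and 14.4 CPM in the same order. Of the Kupffer cell and macrophage markers Csf1r fell, with sums of 2.85 to 3.93, 2.51 to 2.62 and 2.77 CPM. No cholangiocyte or lymphocyte and neutrophil marker passed, with sums of 0.613 to 1.44, 0.583 to 0.97 and 0.736 CPM for the former and 4.22 to 6.78, 3.82 to 6.08 and 5.52 CPM for the latter. The part of these markers, and of the share of odd counts, in the results was not tested.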

How the data were processed

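Liver RNA of 8 mice was sequenced, 1 library each. The authors deposited raw read counts and RPKM per NONCODE transcript, per the file headers, with exon number and length. Per the submitters' processing notes bcl2fastq 2.17, BWA and mm10 were used; the counting tool, its strand setting and its treatment of multi-mapped reads were not stated in those sources. Counts were tested. The deposited RPKM served to check library totals, which exceeded the counts by 19737599 reads in ad libitum replicate 3, where the mitochondrial 16S row is empty. That row, 26.0 to 31.6% of reads elsewhere, was left out. Reads in overlapping rows can count more than once.

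Rows were placed on GENCODE vM21. A row was exonic if it had a single exon over an exon, the span, exon number and length of a GENCODE transcript with such an exon, an end base in an exon, or a length that forces an overlap. For 4 exonic rows 1 exon base is all that is certain.

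edgeR 4.0.16 (R 4.3.3) gave robust quasi-likelihood F tests with TMM scaling, filterByExpr and Benjamini-Hochberg adjustment over all rows or genes. The SE is the log2 fold change divided by the root of F. Fasted replicate 4 was compared through a term for fasted replicates 1 to 3. Exact permutation tests used 0.5 reads as pseudocount (scipy 1.17.1). The code was tested on simulated counts. The alternatives were RLE scaling, library totals, other filters, DESeq2 1.42.0, limma-voom 3.58.1, a replicate block, and leaving out libraries. The labels state no pairing of mice by replicate number, so the main tests used none. Correlations of deviations between libraries of the same number were -0.001 to 0.04, which does not settle whether mice were paired. The p-values measure the spread between labelled biological replicates. Named genes were the 6 members with all tested exonic rows, the intronic row with the most reads of each gene, other pathway genes that passed, and the 3 coding genes most like Cpt1a and Hadha; further rows were named after their values were seen. The members and lists were chosen with earlier results of these data known.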

Additional observations from a re-analysis of the deposited data

Results flagged for a closer look

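The Etfa row NONMMUT069229.2 had 6.97 CPM in fasted replicate 4, far from the other fasted libraries at 5.77 to 5.83 CPM. The gap was 0.954 of the range of the group. Of 40 groups of 4 libraries looked at in this way, this was the 1 that stood out, and chance gives about 1 in 20. The gap depended on the scaling. With the factors of the gene sums the same row had 4.34, 4.25, 4.15 and 4.83 CPM in fasted replicates 1 to 4. By reads over the library total without TMM, fasted replicate 4 lay inside the range of the other fasted libraries.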

How the results depend on the processing

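Of 820 single values under alternatives, 707 kept their direction and side of the threshold, 98 lost the call, 13 gained one and 2 reversed. The 2 were in fasted replicate 4 with the replicate block: the Acsl1 row at -0.030 (adjusted p = 0.99) and the Eci2 row NONMMUT016982.2 at -0.32 (adjusted p = 0.962), neither called before. The count of 8 rising exonic rows was 4 of 4 with same-strand rows alone and 2 of 2 with rows of at least 50% exon bases, where fewer rows enter, and 6 to 8 with libraries left out. Those 2 were the Cpt1a row NONMMUT033414.2 and the Hadha row, which reaches 50% only through the annotated transcript that keeps its introns. The count was 6 with the replicate block, where Hadha (adjusted p = 0.103) and Acsl1 (0.157) did not pass. The 6 gene sums became 4 of 4 with same-strand rows alone, without Slc25a20 and Acsl1, and 2 of 2 (Cpt1a and Hadha) with rows of at least 50% exon bases. They became 4 with the replicate block (adjusted p = 0.0775 for Hadha and 0.138 for Acsl1), and 5 with limma-voom (Hadha, 0.0588) and with no low-count filter (Acsl1, 0.0517). In fasted replicate 4 the count of 5 was 3 with library totals and 1 with the replicate block, the opposite-strand Cpt1a row. Of the other pathway genes, the 2 that fell became 0 with library totals, 1 each with at least 1 CPM in 4 libraries, with limma-voom and with the replicate block, and 0 to 3 with libraries left out; the cause was not tested. Slc27a5 and Echs1 lost their call in 9 of 15 and 7 of 17 alternatives. The 1 passing ratio, of Cpt1a, became 0 with same-strand rows, with at least 50% exon bases (no Etfa value), with the replicate block and with any library left out (0 to 0), where the smallest p possible is 0.125 for the block and 0.0571 for a library less. The call on the Slc25a20 row rests on at most 10 reads in each ad libitum library.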
